A study of Mus musculus with 15 samples.

Results

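Claudin genes and the other genes of the tight junction were described in single microdissected proximal tubules and in whole kidney of the mouse. Members were taken by gene symbol: every claudin, the zonula occludens (Tjp) genes, Ocln, Marveld1, Marveld2, Marveld3, Cgn, F11r, Jam2 and Jam3. This gave 46 of the 47069 genes in the table, of which 35 were claudins and 11 were other junction genes. Among the claudins, 2 have symbols ending in -ps. The measurements came from 15 RNA-Seq libraries. Of these, 12 were single tubules labelled PTS2, in sets m1, m2 and m3 of 4 libraries each, and 3 were whole kidney. All came from male C57BL/6 mice aged 2 months, and the labels name no treatment, transgene or deletion. The labels do not say what the letter m stands for or which libraries came from separate mice, so p-values here measure only the spread between these libraries. The series title concerns how markers of single cell types appear in whole-kidney data.

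Tight junctions seal the space between epithelial cells and set which ions and how much water pass through it. Claudins form the strands of the junction, and the set of claudins in a segment gives that segment a leaky or a tight wall and a preference for cations or anions. Occludin and the related MARVEL proteins lie in the same strands, the JAM proteins are immunoglobulin-like adhesion molecules beside them, and zonula occludens proteins and cingulin tie the strands to actin from the inside. In the kidney the proximal tubule is leaky and reabsorbs salt and water between its cells, the thick ascending limb passes calcium and magnesium through claudin pores, and the collecting duct is tight. Whole kidney contains proximal tubule together with all other cell types, so both groups share that segment.

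Expression is given as TPM, a level scaled to a common library total and already divided by transcript length, so levels of different genes can be set side by side. Because TPM do not retain read depth, a counting error cannot be attached to any value. Differences between groups are on the log2(TPM + 1) scale, which understates changes of low genes. In these bulk libraries fewer cells of a type and less RNA per cell cannot be told apart. Of 7 proximal tubule markers, 2 were called higher, 1 lower and 4 neither, with a median difference of -0.04, and their summed TPM was 13150 to 19010 in the 12 tubules and 10790 to 11920 in whole kidney. Slc27a2 (9166 against 4620 TPM) carried most of that sum and Slc7a13 was also higher (1803 against 773 TPM). Slc5a2, the glucose transporter of the early proximal tubule, was nearly lacking, at 0 to 1.38 TPM in the tubules against a mean of 621 in whole kidney. In 11 of the 12 tubules the summed TPM of 5 thick ascending limb markers was 6.55 to 71.3, against 2998 to 3330 in whole kidney. The twelfth tubule, m3 replicate 3, had 1767 and is given apart below.

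The claudins on which the results turn are shown by the 250 bases upstream of their annotated starts, because Cldn2 and Cldn10 make up most claudin RNA in the tubules and Cldn16 and Cldn19 stand out together in m3 replicate 3. Sequences are from RefSeq on GRCm38.p6, on the plus strand, 5′ to 3′. Capitals mark matches to TATAAA (the TATA box) and GGGCGG (the GC box), searched on both strands, and no match overlapped another.

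Cldn2, chrX:139800558-139800807: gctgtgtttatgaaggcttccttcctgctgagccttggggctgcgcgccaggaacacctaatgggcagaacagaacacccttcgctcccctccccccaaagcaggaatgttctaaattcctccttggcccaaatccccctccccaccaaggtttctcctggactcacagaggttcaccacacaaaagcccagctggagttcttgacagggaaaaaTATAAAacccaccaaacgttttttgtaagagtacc
Cldn10 first start, chr14:118787621-118787870: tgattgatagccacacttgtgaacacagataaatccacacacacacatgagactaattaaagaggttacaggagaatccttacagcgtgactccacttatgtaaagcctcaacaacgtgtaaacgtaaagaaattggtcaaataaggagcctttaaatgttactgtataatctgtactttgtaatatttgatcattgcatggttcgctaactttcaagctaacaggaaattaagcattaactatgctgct
Cldn10 second start, chr14:118854700-118854949: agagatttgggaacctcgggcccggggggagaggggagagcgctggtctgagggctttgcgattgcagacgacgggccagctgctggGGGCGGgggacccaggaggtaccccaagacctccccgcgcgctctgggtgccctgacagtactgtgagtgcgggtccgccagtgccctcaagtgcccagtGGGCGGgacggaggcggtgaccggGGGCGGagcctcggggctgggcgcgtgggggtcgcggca
Cldn16, chr16:26462885-26463134: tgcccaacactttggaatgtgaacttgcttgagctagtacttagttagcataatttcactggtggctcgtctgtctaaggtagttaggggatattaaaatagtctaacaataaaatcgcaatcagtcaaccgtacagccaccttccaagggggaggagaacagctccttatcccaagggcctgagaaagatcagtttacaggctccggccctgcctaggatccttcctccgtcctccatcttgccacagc
Cldn19, chr4:119255191-119255440: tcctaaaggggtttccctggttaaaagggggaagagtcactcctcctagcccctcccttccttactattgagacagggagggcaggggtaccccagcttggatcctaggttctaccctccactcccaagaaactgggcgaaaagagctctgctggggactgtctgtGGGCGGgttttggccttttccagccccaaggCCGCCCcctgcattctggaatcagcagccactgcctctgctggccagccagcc

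The Cldn2 window held TATAAA beginning 35 bases before the start, a motif present in 12.4% of all 32851 promoters in the RefSeq table, counted over their 250 upstream bases. Cldn10 has 2 annotated starts 67.1 kb apart. The first has a GC content of 36.0% and held neither motif. The second has a GC content of 72.4%, 22 CpG dinucleotides and 3 GC boxes, where the median promoter has 52.4% and 6 CpG and 32.7% hold a GC box. The isoforms of Cldn10 are known to differ in their first exon, in ion preference and in nephron segment, and the deposited value of the gene adds all of them. Cldn19 held 2 GC boxes, and the Cldn16 window held none of these letters. Cldn19 has a second annotated start, at chr4:119255469, whose overlapping window holds the same 2 boxes and is not printed. A match is a description of the sequence and was not tested for binding. On the same build the genes themselves span chrX:139800808-139811386 for Cldn2, chr14:118787871-118874525 for Cldn10, chr16:26463135-26482765 for Cldn16 and chr4:119255441-119262438 for Cldn19.

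Of the 46 members, 26 reached a mean of 1 TPM in PTS2 or in whole kidney: 15 claudins and all 11 other junction genes. The other 20 claudins stayed under that level in both groups, with a highest value in any library of 0.75 TPM. Among these, 11 were listed at 0 in all 15 libraries. In PTS2 itself 19 members reached 1 TPM on average, of which 9 were claudins, and 26 did so in whole kidney.

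**Figure D1:**
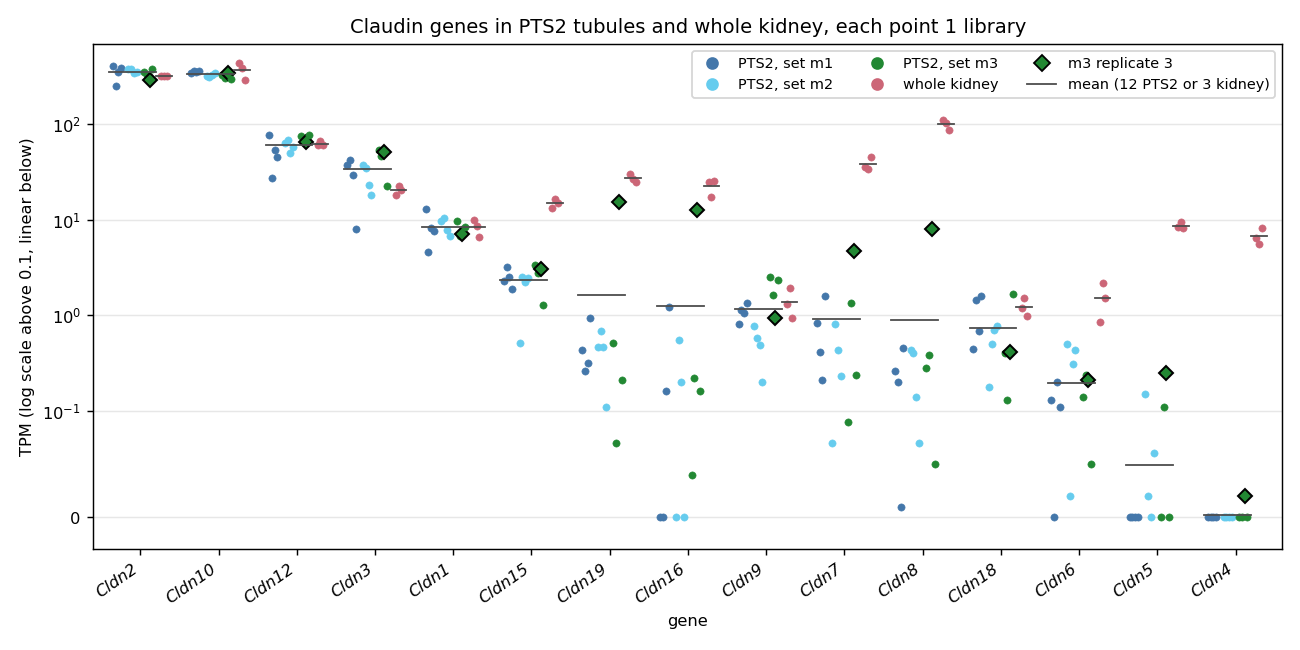
TPM of the 15 claudins with a mean of at least 1 TPM in PTS2 or whole kidney (vertical axis logarithmic above 0.1 and linear below), with 1 point per library coloured by PTS2 set or whole kidney, m3 replicate 3 as a diamond and horizontal lines at the group means. Cldn2 and Cldn10 lie above 250 TPM in all 15 libraries, while the 11 other tubules have Cldn8 at 0.46 TPM or less and whole kidney at 87.95 to 111 TPM.

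Cldn2 and Cldn10 dominated the claudin RNA of the tubules, and neither passed the test against whole kidney with the TPM as deposited. Cldn2 forms pores for cations and water in the proximal tubule. Its level in the 12 tubules was 251 TPM at the lowest, 356 at the median and 411 at the highest, and the 3 kidney libraries had 324, 320 and 323. The tubule range held the kidney values, with 10 of 12 tubules above every kidney library and 2 below. The difference was 0.11 ± 0.11 (log2, SE; limma adjusted p = 0.424). Under median-of-ratios rescaling, which sets the median difference of all genes to 0.00 in place of -0.27, Cldn2 was higher in PTS2 by 0.40 (adjusted p = 0.0026). Cldn10 ran from 298 TPM through a median of 335 to 360 in the tubules and was 433, 390 and 294 in whole kidney. The kidney libraries spanned more than all 12 tubules did, and the difference of -0.14 ± 0.09 had an adjusted p of 0.203. It was called lower at -0.30 (adjusted p = 0.0058) without whole kidney replicate 3 and at -0.24 (adjusted p = 0.042) after quantile normalization, while median-of-ratios rescaling turned its sign to 0.15.

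Cldn12 and Cldn3 were the next claudins in the tubules. Cldn12, a claudin linked to calcium passage that lacks the usual binding end for zonula occludens proteins, had 27.6, 64.2 and 78.1 TPM as the lowest, median and highest tubule and 60.4, 66.2 and 60.5 in whole kidney. Its difference was -0.09 ± 0.23 (limma adjusted p = 0.769), and its sign changed with rescaling and without m1 replicate 2, the lowest tubule. Cldn3, usually described as a sealing claudin, spread more widely. Tubules ranged from 7.97 TPM through a median of 36.4 to 53.9, and whole kidney had 18.1, 22.6 and 20.5. Of the tubules, 9 of 12 lay above every kidney library and only m1 replicate 4 lay below every one. The difference of 0.57 ± 0.41 did not pass the test (limma adjusted p = 0.258), but it did at 0.73 without m1 replicate 4 (adjusted p = 0.034). It also passed with the 12 tubules reduced to one mean per set, at 0.68 (adjusted p = 0.012).

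Cldn1, a barrier claudin, was present at 8.35 ± 2.14 TPM in PTS2 (SD, n = 12) and 8.43 ± 1.65 in whole kidney (SD, n = 3). The difference was -0.03 ± 0.21 (limma adjusted p = 0.909) and its sign changed under 6 of the alternatives, among them quantile normalization, where it was called higher at 0.61 (adjusted p = 0.0065). Cldn9, a claudin known from the inner ear and the neonatal kidney, was low in both groups, at 1.16 ± 0.708 TPM in PTS2 and 1.39 ± 0.504 in whole kidney. Its difference of -0.20 ± 0.26 did not pass the test (limma adjusted p = 0.547). Cldn18, the claudin of lung and stomach, had 0.13 to 1.66 TPM in tubules and 0.98 to 1.54 in whole kidney, and Cldn6, an embryonic claudin, had 0 to 0.50 and 0.86 to 2.20. Neither reached the mean of 1 TPM over all libraries that the test required, and Cldn6 was below every kidney library in all 12 tubules.

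Against whole kidney, 24 members were tested, and 13 were called lower and 0 higher in PTS2 at an adjusted p under 0.05. The share lower was 54.2% of members, where 41.5% of all 12039 genes tested were lower and 9.68% higher. In all 13 every tubule lay below every kidney library, a separation seen in 32.0% of genes tested. Of the 13, Cldn8, Cldn7, Cldn5, Cldn4 and Jam2 had PTS2 means under 1 TPM and entered the test only through their kidney level. Without m3 replicate 3 the same held for Cldn16 and Cldn19. Of the 787 such genes in the whole table, 736 were called lower. The median difference was -0.59 over the 24 members and -0.27 over all genes, so the counts depend on scaling: 18.9% of all calls were higher in PTS2 with the TPM as deposited, 50.7% after median-of-ratios rescaling and 64.4% after quantile normalization. On those scales 3 and 4 members were called higher.

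The claudins of the collecting duct and distal nephron, Cldn8, Cldn7 and Cldn4, had PTS2 means at or below 2.40% of their whole kidney means. Cldn8 (chr16:88560826-88563183), which with Cldn4 forms an anion path in the collecting duct, had 0.01 to 0.46 TPM in 11 tubules, 8.02 in m3 replicate 3, and 111, 103 and 87.95 in whole kidney. The PTS2 mean was 0.886% of the kidney mean, or 0.243% without m3 replicate 3. On the log2(TPM + 1) scale the difference of -6.12 ± 0.47 was the largest among the members tested (limma adjusted p = 1.3e-08). As a percent of the kidney mean Cldn4 was lower, at 0.0248%, and so was Cldn5 with m3 replicate 3 included, at 0.569%. Cldn7, found along the distal nephron and in the collecting duct, had 0.07 to 1.59 TPM in 11 tubules, 4.72 in m3 replicate 3, and 35.5, 33.9 and 45.2 in whole kidney. Its difference was -4.53 ± 0.39 (adjusted p = 5.9e-08), and its PTS2 mean was 1.497% of the kidney mean without m3 replicate 3. Cldn4 was listed at 0 in 11 tubules and at 0.02 TPM in m3 replicate 3, while whole kidney had 6.41, 5.59 and 8.16. Its difference was -2.93 ± 0.11 (adjusted p = 1.3e-12), and it fell under the filter when whole kidney replicate 1 or 3 was left out. Beside these claudins, the 4 principal cell markers of the collecting duct summed to 1.76 to 15.6 TPM in the 12 tubules and 656 to 870 in whole kidney. The part of that cell type in these differences was not tested.

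Cldn16 and Cldn19 pair in the thick ascending limb, where mutations in either cause loss of magnesium and calcium. Cldn16 had 0 to 1.23 TPM in 11 tubules, 12.55 in m3 replicate 3, and 25.1, 17.3 and 25.4 in whole kidney. Cldn19 had 0.07 to 0.93 TPM in the 11 tubules, 15.2 in m3 replicate 3, and 30.2, 26.5 and 24.8 in whole kidney. Both were below every kidney library in all 12 tubules. The differences were -3.99 ± 0.59 for Cldn16 (limma adjusted p = 3.2e-05) and -4.04 ± 0.58 for Cldn19 (limma adjusted p = 2.3e-05). Without m3 replicate 3 they were -4.28 and -4.34, and the PTS2 means were 1.03% and 1.49% of the kidney means, where with it they were 5.57% and 6.03%.

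Cldn15 and Cldn5 completed the claudins called lower. Cldn15, a cation pore best known from the intestine, kept a measurable level in the tubules, 0.52 TPM at the lowest, 2.49 at the median and 3.34 at the highest, against 13.2, 16.6 and 14.9 in whole kidney. The difference was -2.30 ± 0.25 (limma adjusted p = 8.4e-07), and the PTS2 mean was 15.7% of the kidney mean. Cldn5, the claudin of vascular endothelium that is also found in podocytes, was at 0 to 0.25 TPM in the tubules and at 8.32, 9.46 and 8.16 in whole kidney. Its difference was -3.20 ± 0.12 (adjusted p = 5.2e-13). The 5 endothelial markers summed to 10.3 to 36.5 TPM in tubules and to 130 to 137 in whole kidney. The 3 podocyte markers summed to 0.77 to 2.45 and 74.7 to 96.2.

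**Figure D2:**
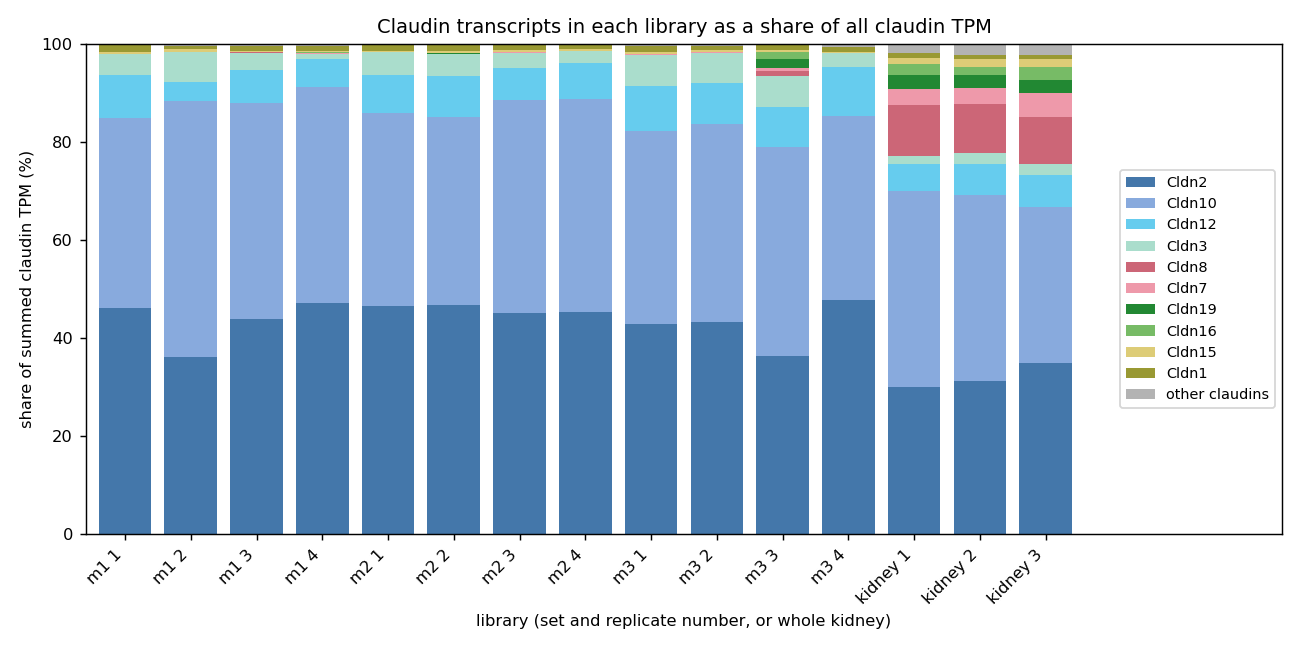
Share of each claudin in the summed claudin TPM of each library (vertical axis, percent; bars stack to 100), for the 12 PTS2 tubules and 3 whole kidney libraries. Cldn2 and Cldn10 fill 78.9% to 91.3% of each tubule bar and 66.8% to 70.0% of each kidney bar, and Cldn8 is visible only in whole kidney and, at 0.994%, in m3 replicate 3.

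Summed over the family, claudin RNA was 798 ± 47.9 TPM in PTS2 (SD, n = 12) and 1010 ± 79.8 TPM in whole kidney (SD, n = 3). The highest tubule had 892 TPM and the lowest kidney library 924. This gap depends on scaling. After median-of-ratios rescaling the kidney mean was 848.5 TPM, while the PTS2 mean moved by less than its SD. Cldn2 and Cldn10 together held 85.9% ± 3.35 of that sum in PTS2 and 68.6% ± 1.67 in whole kidney. With Cldn12 and Cldn3 added, the share was 97.7% ± 1.37 in PTS2 and 76.9% ± 1.17 in whole kidney. Cldn8 alone held 9.96% ± 0.396 of claudin TPM in whole kidney, and stood above Cldn12 in 3 of 3 kidney libraries and 0 of 12 tubules. Cldn2 stood above Cldn10 in 9 of 12 tubules and 1 of 3 kidney libraries, so the order of these leading claudins was not fixed within either group. Cldn10 was above Cldn12 in all 15 libraries, and Cldn12 above Cldn3 in all of them but m1 replicate 2.

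**Figure D3:**
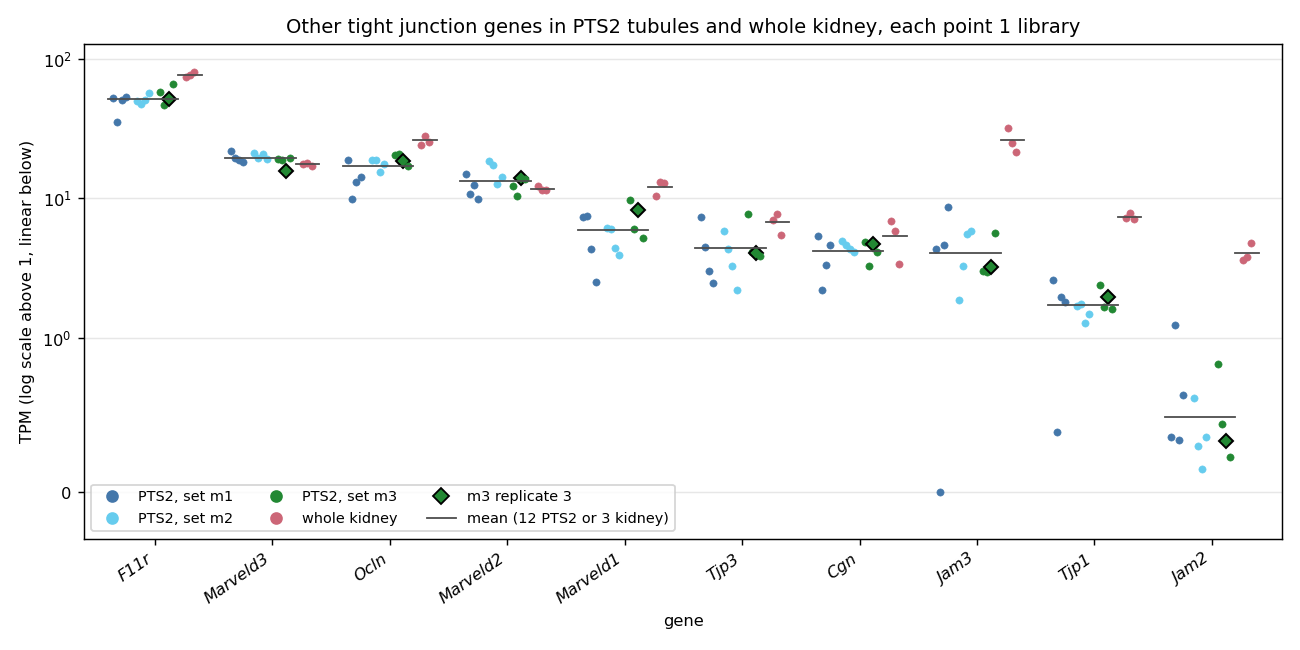
TPM of 10 tight junction genes outside the claudin family (vertical axis logarithmic above 1 and linear below), with 1 point per library coloured by PTS2 set or whole kidney, m3 replicate 3 as a diamond and horizontal lines at the group means. Whole kidney lies above every tubule for F11r, Ocln, Marveld1, Jam3, Tjp1 and Jam2, and m3 replicate 3 is not the highest tubule for any gene shown.

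Among the MARVEL genes, Ocln and Marveld1 were lower in PTS2 while Marveld2 and Marveld3 did not pass the test. Ocln, the strand protein occludin, had 9.85, 18.2 and 20.7 TPM as lowest, median and highest tubule and 24.4, 28.3 and 25.6 in whole kidney. Its difference of -0.61 ± 0.17 passed the test (limma adjusted p = 0.0060), but not after median-of-ratios rescaling (-0.33, adjusted p = 0.0611) or quantile normalization (-0.26, adjusted p = 0.0971). Marveld1, a less studied MARVEL protein, had 2.5 to 9.75 TPM in tubules and 10.4 to 13.2 in whole kidney. Its difference was -0.97 ± 0.26 (adjusted p = 0.0048) and was not called after quantile normalization (-0.39, adjusted p = 0.186). Marveld2, or tricellulin, which marks corners where cells meet, had 9.94, 13.2 and 18.5 TPM as lowest, median and highest tubule and 12.2, 11.6 and 11.5 in whole kidney. Marveld3 varied little, at 15.8 to 21.9 TPM in tubules and 17.6, 18.1 and 17.1 in whole kidney. Their differences, 0.16 ± 0.15 and 0.13 ± 0.08, did not pass the test (limma adjusted p = 0.393 and 0.215). Both passed as higher after median-of-ratios rescaling, at 0.43 and 0.40, and after quantile normalization, at 0.71 and 0.55. The order of levels therefore differed between groups in this table: Marveld3 exceeded Ocln in 9 of 12 tubules and in 0 of 3 kidney libraries, which was not tested.

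The JAM genes were all called lower, by very different amounts. F11r, which encodes the epithelial JAM-A, was the most abundant of the 11 members outside the claudins. It had 35.7, 51.1 and 66.4 TPM as lowest, median and highest tubule and 74.3, 76.6 and 80.5 in whole kidney, a difference of -0.58 ± 0.12 (limma adjusted p = 0.0010). Jam3 had 0, 3.80 and 8.75 TPM as lowest, median and highest tubule and 32.1, 25.2 and 21.5 in whole kidney. Its difference was -2.58 ± 0.47 (adjusted p = 2.5e-04). Jam2 had 0.15 to 1.23 TPM in tubules and 3.64, 3.81 and 4.78 in whole kidney, a difference of -1.79 ± 0.18 (adjusted p = 3.1e-07). Jam2 and Jam3 are known from endothelium as well as epithelium. The endothelial marker sums given with Cldn5 stand beside them also, and the part of that cell type was not tested.

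Of the plaque genes Tjp1, Tjp3 and Cgn, only Tjp1 was called lower with the TPM as deposited. Tjp1, or ZO-1, the scaffold that binds claudins and actin, had 0.39, 1.72 and 2.61 TPM as lowest, median and highest tubule and 7.21, 7.88 and 7.08 in whole kidney. The difference was -1.66 ± 0.21 (limma adjusted p = 5.1e-06), and the PTS2 mean was 23.1% of the kidney mean. Its paralog Tjp3, or ZO-3, had 2.19, 4.08 and 7.67 TPM as lowest, median and highest tubule and 7.02, 7.73 and 5.42 in whole kidney. Its difference of -0.58 ± 0.27 missed the threshold (adjusted p = 0.080) and passed it without m1 replicate 1 or m3 replicate 1, at -0.65 and -0.64 (adjusted p = 0.047 and 0.032), and with one mean per set, at -0.51 (adjusted p = 0.020). Tjp3 exceeded Tjp1 in 12 of 12 tubules and in 0 of 3 kidney libraries. Cgn, cingulin, had 4.21 ± 0.895 TPM in PTS2 and 5.36 ± 1.78 in whole kidney, a difference of -0.27 ± 0.20 (adjusted p = 0.272) that quantile normalization turned to 0.49 (adjusted p = 0.029).

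**Figure D4:**
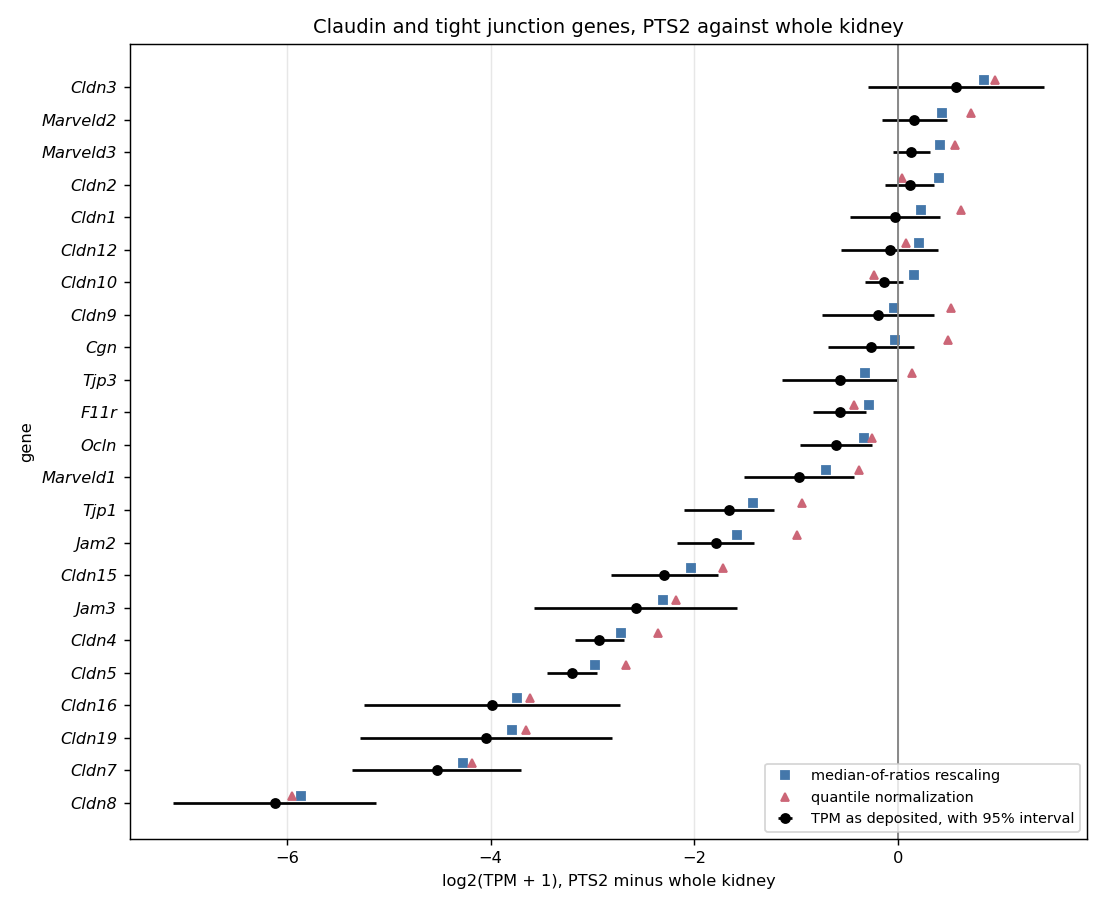
Difference in log2(TPM + 1), PTS2 minus whole kidney (horizontal axis), for 23 of the 24 members tested; black points with 95% intervals are from the TPM as deposited, squares from median-of-ratios rescaling and triangles from quantile normalization. The 13 members called lower run from -6.12 for Cldn8 to -0.58 for F11r, Cldn2, Cldn3, Marveld2 and Marveld3 lie above 0 on all 3 scales, and Cldn10, Cldn12, Cldn1, Cldn9, Cgn and Tjp3 lie on either side of 0 depending on the scale.

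In m3 replicate 3, the claudin pair of the thick ascending limb was far above its level in the other tubules. Cldn16 was at 55.6% and Cldn19 at 56.0% of the kidney mean, where no other tubule exceeded 5.44% and 3.42%. The 5 thick ascending limb markers Umod, Slc12a1, Kcnj1, Ptger3 and Egf were all highest in this library, at 18.3% to 62.2% of their kidney means, and their sum was at 56.1%. Their part in the claudin values was not tested. Cldn7 at 12.4%, Cldn8 at 7.96%, Cldn5 at 2.89% and Cldn4 at 0.298% of the kidney mean were also highest here among the 12 tubules. The podocyte marker sum was highest here too, at 2.45 TPM against at most 2.33 in the others, and the endothelial sum of 34.1 TPM lay within their range. None of the 11 junction genes outside the claudins was highest in this library. Marker sums of the segments in which Cldn8 and Cldn4 are best known were no higher than in other tubules. The distal convoluted tubule sum was at 0.202%, the principal cell sum at 0.564% and the intercalated cell sum at 0.0833% of kidney. The urothelial markers were at 0. The distal tubule and principal cell sums of the other 11 tubules reached 0.266% and 2.10%. The part of these segments in the Cldn8 and Cldn4 values of m3 replicate 3 was not tested. Cldn2 was lower in this library than in all tubules but m1 replicate 2, at 293 TPM, and Marveld3 was lowest here, at 15.8 TPM.

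**Figure D5:**
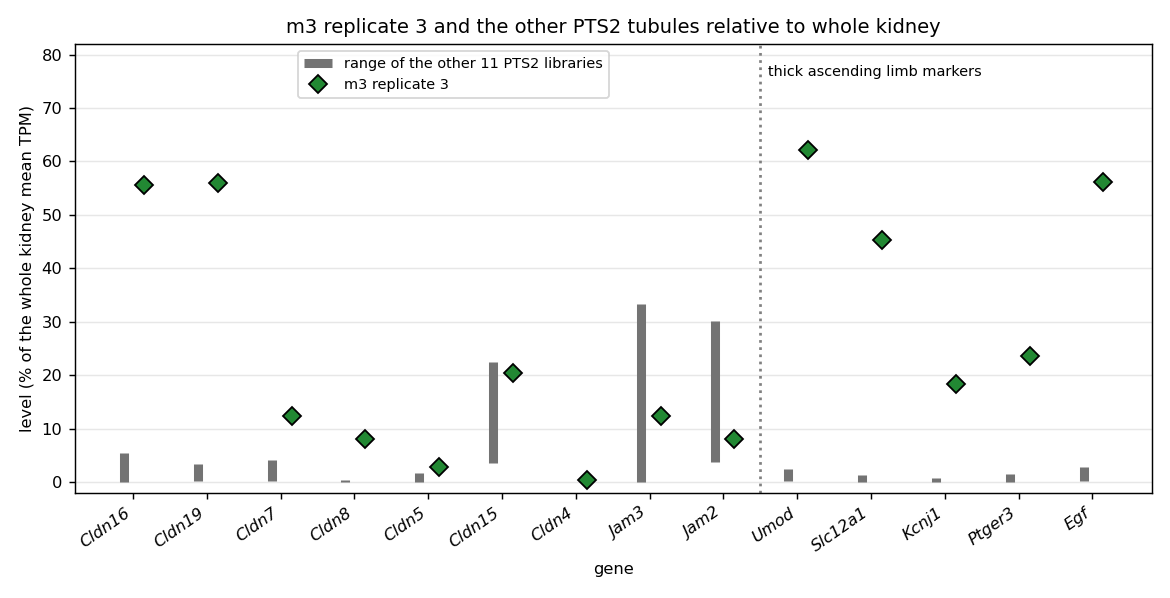
Level as a percent of the whole kidney mean TPM (vertical axis) of 9 members and of 5 thick ascending limb markers; diamonds show m3 replicate 3 and grey bars the range of the other 11 PTS2 libraries. Cldn16 and Cldn19 sit at 55.6% and 56.0%, within the 18.3% to 62.2% of the markers, while Cldn15, Jam3 and Jam2 sit inside the range of the other tubules.

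The tubule with the next highest sum of thick ascending limb markers was m1 replicate 4, at 71.3 TPM or 2.26% of kidney. It also had the next highest Cldn16 (1.23 TPM), Cldn19 (0.93 TPM) and Cldn7 (1.59 TPM), and the lowest Cldn3 (7.97 TPM). Its principal cell sum of 15.6 TPM was the highest of the tubules. These values stand side by side and were not tested.

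Among the 3 sets of tubules no member was called different. Of the 19 members tested, 0 passed the limma F test at an adjusted p under 0.05 and 2 had an unadjusted p under 0.05, where 3.02% of all 11300 genes were called. Cldn9 had the smallest adjusted p, 0.0891. Its mean was 1.095 ± 0.22 TPM in m1, 0.513 ± 0.241 in m2 and 1.86 ± 0.720 in m3 (SD, n = 4 each). The m2 libraries had 0.78, 0.58, 0.49 and 0.20 TPM the m3 libraries 2.53, 1.62, 0.95 and 2.33, and the m1 libraries 0.82, 1.15, 1.06 and 1.35. All m2 libraries lay below all libraries of the other sets, while m1 and m3 overlapped. Without m3 replicate 3 Cldn9 was called (adjusted p = 0.042), and without m1 replicate 1 Ocln was (adjusted p = 0.035). Ocln had 14.0 ± 3.79 TPM in m1, 17.7 ± 1.64 in m2 and 19.3 ± 1.68 in m3. Cldn2 and Cldn10 had adjusted p of 0.868 and 0.308 across the sets.

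Within each set the libraries carry numbers from 1 to 4, whose meaning the labels do not give. A contrast of number 4 against number 1 within sets, chosen after seeing the data, called 3 of 19 members, where 4.76% of 11300 genes were called. Cldn3 had 37.9, 37.6 and 53.9 TPM in the libraries numbered 1 of m1, m2 and m3, and 7.97, 18.3 and 22.5 in those numbered 4. All of the latter were lower, and the difference was -1.45 ± 0.24 (limma adjusted p = 0.0071). Tjp3 had 7.31, 5.86 and 7.67 TPM against 2.47, 2.19 and 3.86, a difference of -1.07 ± 0.17 (limma adjusted p = 0.0047). Marveld1 had 7.38, 6.12 and 9.75 TPM against 2.5, 3.94 and 5.21, a difference of -0.86 ± 0.21 (limma adjusted p = 0.046). In the limma test over all numbers from 1 to 4, Marveld1 was not called (adjusted p = 0.139). Cldn3 and Tjp3 were called there (adjusted p = 0.0243 and 0.0235). Cldn2 and Cldn10 showed differences of -0.04 ± 0.13 and 0.00 ± 0.07 in the same contrast.

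One tubule, m1 replicate 2, was low for part of the members. It was the lowest of the 12 tubules for 10 of the 19 members tested among sets, or 52.6%, where it was the lowest for 34.5% of all 11300 genes. The median deviation of the members from the median of the other tubules was -0.32 in this library on the log2 scale, and -0.13 over all genes. Jam3 was listed at 0 here, where the next lowest tubule had 1.87 TPM and Tjp1 was at 0.39 against 1.27. Cldn10 and Jam2 had their highest tubule values in this library, 360 and 1.23 TPM, and Cldn3, Marveld1, Tjp3 and Cldn15 lay above the tubule median, at 41.9, 7.45, 4.46 and 3.21 TPM. Without this tubule and m3 replicate 3, a choice made after seeing the data, 14 members were called lower and Cldn2 was called higher at 0.19 (limma adjusted p = 0.021).

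The genes that work with these proteins were counted in 5 lists and compared with the 41.5% of all genes called lower and their median of -0.27. Of the genes named from them, Magi2, Pard3b and Casr had PTS2 means under 1 TPM and entered the test only through their kidney level. In the junction plaque list 10 of the 14 genes tested were lower and 0 higher, with a median difference of -0.73. The scaffold Magi2, which is also part of the podocyte slit diaphragm, had 0.483 ± 0.212 TPM in PTS2 and 10.3 ± 0.902 in whole kidney (-2.93 ± 0.14, limma adjusted p = 3.0e-11). The cingulin relative Cgnl1 had 12.6 ± 5.29 and 52.4 ± 5.51 TPM (-2.07 ± 0.30). Arhgef2, an exchange factor held at junctions by cingulin, had 4.37 ± 1.19 and 17.2 ± 1.22 TPM (-1.79 ± 0.18). Of the polarity genes, which place the junction between the apical and lateral membrane, 7 of 14 tested were lower and 0 higher, with a median of -0.46. Pard3b fell furthest of those named, from 5.71 ± 0.389 TPM in whole kidney to 0.921 ± 0.331 in PTS2 (-1.82 ± 0.16), followed by Llgl1 (-0.86 ± 0.19) and Lin7c (-0.61 ± 0.11). Pard3 itself, the core polarity scaffold, had a difference of 0.00 (limma adjusted p = 0.987).

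Tricellular and immunoglobulin-like adhesion genes gave 4 lower and 1 higher of 7 tested, with a median of -0.37. Esam, an adhesion molecule of endothelial junctions, had 4.07 ± 2.52 TPM in PTS2 and 42.7 ± 4.20 in whole kidney (-3.27 ± 0.41, limma adjusted p = 5.1e-06). Ildr1, which recruits tricellulin to corners between cells, had 5.42 ± 2.67 and 22.8 ± 1.83 TPM (-2.06 ± 0.46, adjusted p = 0.0015), and its relative Ildr2 had 7.68 ± 1.59 and 15.7 ± 1.31 (-0.96 ± 0.16). Lsr, the third gene of that family, had 49.9 and 52.6 TPM and was not called (-0.08, adjusted p = 0.546). The gene called higher, named after its value was seen, was Clmp, an adhesion molecule related to the coxsackievirus receptor, with 6.36 ± 1.33 TPM in PTS2 and 3.46 ± 1.105 in whole kidney (0.73 ± 0.18, adjusted p = 0.0036). Of the adherens junction genes 9 of 10 tested were lower and 0 higher, with a median of -0.57. They included Nectin2 (-1.90 ± 0.18), Cdh1, the gene of E-cadherin (-0.75 ± 0.17), and Ctnna1, the catenin that links it to actin (-0.75 ± 0.17).

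In the list compiled as claudin regulators, 10 of 14 tested were lower and 1 higher, with a median of -0.39. Those counted lower include Cnnm2, Fxyd2 and Cap1, whose action on claudins is not established here and was not tested. The count is thus not one of known claudin regulators only. Wnk1, a kinase with a distal nephron isoform, had 5.71 ± 1.25 and 102 ± 14.97 TPM (-3.95 ± 0.16, limma adjusted p = 2.1e-12). The 2 distal convoluted tubule markers summed to 0 to 0.54 TPM in the tubules and 198 to 207 in whole kidney. Casr, the calcium receptor that governs the Cldn16 and Cldn19 pore in the thick ascending limb, had 0 to 0.33 TPM in 11 tubules, 5.53 in m3 replicate 3 and a mean of 10.9 in whole kidney. In m3 replicate 3 it was thus at 50.6% of the kidney mean, next to 55.6% for Cldn16 and 56.0% for Cldn19. The transcription factor Hnf4a, a known activator of proximal tubule genes, had a difference of -0.15 that did not pass the test (adjusted p = 0.252). The gene called higher, again named after its value was seen, was Ovol1, a transcription factor of epithelia, with 12.6 ± 1.79 TPM in PTS2 and 9.50 ± 2.23 in whole kidney (0.39 ± 0.14, adjusted p = 0.027).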

How the data were processed

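Per the labels' protocols, polyA RNA of 12 single PTS2 tubules (3 sets of 4) and 3 whole kidneys was amplified to cDNA with a low-input kit, and libraries were sequenced on an Illumina HiSeq. The values the authors deposited are TPM in 1 table with 1 column per library, each summing to within 1 of 1000000 when rounded to whole numbers. The submitters' processing notes name STAR 2.5.1b, RSEM 1.2.31 and the build GRCm38.p5 without their roles. Whether counting used the strand is not given in the sources used here. Libraries were mapped to groups by their description labels. The authors' 4 columns of means and standard errors were not used.

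The limma package 3.58.1 under R 4.3.3 (two-sided, empirical Bayes with a mean-variance trend) gave all differences on log2(TPM + 1), a pseudocount of 1. Only genes averaging 1 TPM or more across the fitted libraries were kept, 12039 against whole kidney and 11300 among the sets, and p-values were adjusted over all of them by the Benjamini-Hochberg method at 0.05. The set was a correlated block against whole kidney (estimated correlation 0.0669). The fits were tested on simulated data with independent normal noise. The simulation held no within-set correlation and no lower limit on values, so it does not bear on those features. An SE follows ± in a log2 difference and an SD with n = 12 or 3 in a level. Read depth is unknown, so precision rests on the replicate spread.

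Alternatives to the values were a pseudocount of 0.1, quantile normalization, median-of-ratios rescaling, a filter at 10 TPM or none, and, for claudin sums, removal of mitochondrial genes. Alternatives to the design were a block for the replicate number, one mean per set, a within-set correlation of 0 and omission of each library in turn. The members and all gene lists (9 marker lists of 36 genes and 5 junction lists of 73) were chosen with earlier results of these data known. Members with a mean of at least 1 TPM in either group were named, and from each junction list up to 3 genes per direction with an adjusted p under 0.05, no overlap between groups and the largest differences. Some genes that met these rules are counted but not reported here. Coordinates and promoters are from RefSeq (GRCm38.p6), matched by symbol: 46 of 46 members had a gene entry and 34 a promoter. Promoters were printed for the most abundant claudins and for Cldn16 and Cldn19. Values were computed in Python 3.11.15 with numpy 2.4.6 and pandas 2.3.3, and figures were drawn with matplotlib 3.10.9.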

Additional observations from a re-analysis of the deposited data

Results flagged for a closer look

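Members with a mean of at least 1 TPM in PTS2 or whole kidney, and the claudin sum, were examined within each set of 4 tubules. A single library far from the other 3 was sought, and sets of values with no spread were left out. Of 78 sets of values, 8 held one, where chance gives about 1 in 20 or 3.9 for normally distributed values. Several of these values lie near 0, so that rate is only a rough guide. Of these, 4 lay in m3 replicate 3: Cldn19 at 15.2 TPM with the next library of the set at 0.51, Cldn16 at 12.55 with the next at 0.22, Cldn8 at 8.02 with the next at 0.39, and Cldn4 at 0.02 with the others at 0. The value of Cldn4 is close to the smallest step of the table and carries little weight. Library m3 replicate 3 was already set apart for its thick ascending limb markers, so its 4 cases cannot be weighed against the chance rate.

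Cldn16 also stood apart in m1 replicate 4, at 1.23 TPM with the next of that set at 0.16. In the remaining cases Tjp3 was high in m3 replicate 1, at 7.67 TPM against 4.09 for the next, Jam3 was high in m3 replicate 4, at 5.61 TPM against 3.24, and Cldn15 was low in m2 replicate 1, at 0.52 TPM against 2.26.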

How the results depend on the processing

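Of the 13 members called lower than in whole kidney, 13 were called lower with a pseudocount of 0.1, with no within-set correlation and without m3 replicate 3. The total number of members called lower was 12 after median-of-ratios rescaling, which lost Ocln. It was also 12 after quantile normalization, which lost Ocln and Marveld1 and added Cldn10. The total was 15 with one mean per set and 18 with no filter on low values. With a mean of at least 10 TPM required it was 3, since 9 members were then tested. Leaving out 1 library at a time gave 12 to 14 lower and 0 to 1 higher, and 4761 to 6712 genes called in all, where 6161 were called with the design as described. Without a filter 9399 genes were called, and 3113 with the stricter one. Members called higher numbered 3 after median-of-ratios rescaling, 4 after quantile normalization, 1 (Cldn3) with one mean per set and 1 (Cldn2) without m1 replicate 2 and m3 replicate 3.

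Signs reversed only for members that were not called. Under median-of-ratios rescaling Cldn10 was at 0.15, Cldn12 at 0.20 and Cldn1 at 0.23. Under quantile normalization Cldn12 was at 0.0798, Cldn1 at 0.61, Tjp3 at 0.14, Cgn at 0.49 and Cldn9 at 0.52. Cldn1 was at 0.0027 with one mean per set, at 0.0834 without whole kidney replicate 1 and at 0.03 without m1 replicate 2, where Cldn12 was at 0.0091. Without m1 replicate 2 and m3 replicate 3 these were at 0.06 and 0.0054. Over all single libraries left out, Cldn12 ranged from -0.136 to 0.0091 and Cldn1 from -0.174 to 0.0834. The summed claudin level of whole kidney was 848.5 TPM after median-of-ratios rescaling, where it was 1010 as deposited.

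Among the sets the number of genes called was 341, and 196 with no filter and 217 without m1 replicate 2 and m3 replicate 3, where 1 member, Cldn9, was called. Leaving out 1 library gave 197 to 563 genes and 0 to 1 members. The cause of these changes was not tested.

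The limit set for pairing by replicate number was a correlation of deviations over 0.1. Of 12 same-numbered pairs of tubules from different sets, 7 passed it, with a range of 0.025 to 0.273, so the libraries were not treated as paired. The 36 pairs of different numbers ranged from -0.238 to 0.148, and 9 of 12 libraries correlated best with one of their own number. Libraries of the same number were thus often more alike, though not all pairs met the limit. A fit with a replicate block called 888 genes among the sets and 0 members. Against whole kidney the block gave 14 members lower, with Tjp3 added, and 1 higher, Cldn3 at 0.89 (limma adjusted p = 0.012). That fit gave kidney libraries the same number terms as tubules of their number, a link the labels do not state. No kidney library is numbered 4, so its differences rest on the tubules numbered 1 to 3. The tubules numbered 4, which had the lowest Cldn3 of each set, did not enter them.

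Depth is unknown, so values under 1 TPM, which include most claudins in the tubules, cannot be given a counting error.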

Other observations

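Several members are close neighbours in the genome (RefSeq, GRCm38.p6) and differ in level. Cldn3 and Cldn4 lie 39.3 kb apart on chromosome 5. In the tubules Cldn3 had a mean of 33.8 TPM while Cldn4 was listed at 0 in 11 of 12, and whole kidney had means of 20.4 and 6.72 TPM. Cldn1 and Cldn16 lie 91.3 kb apart on chromosome 16. Cldn1 was at 7.04 TPM in m3 replicate 3, inside the 4.57 to 12.9 TPM of the other tubules, where Cldn16 was at 12.55 TPM. Ocln and Marveld2 lie 43.2 kb apart on chromosome 13, with differences from whole kidney of -0.61 and 0.16 (log2), of which the first passed the limma test.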
